A study of Mus musculus with 8 samples.

Results

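The TRIM genes described here are the 41 mouse genes that are named Trim with a number and at most a letter and that had 80 or more counts over 8 libraries. They were taken from 68 such symbols among 53647 gene names. All 41 were among the 13412 genes with enough counts to be tested. They were chosen by that total count and by name, so the totals are a description and no result. The members just inside the minimum were Trim9 (119 counts), Trim34b (123) and Trim46 (145), and the symbols just outside were Trim43c (61), Trim17 (54) and Trim2 (47). The name does not reach every gene of the family, so 13 relatives with other names were looked up separately.

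Sorted leukemia macrophages from C57BL/6 mice were compared by polyA RNA sequencing after 12 h of culture. Mac stands for 4 libraries of macrophages kept alone, and E-Mac for 4 libraries of macrophages that had shared the culture with mesenchymal stromal cells (MSC), the connective tissue precursors of marrow and other organs. Strain and cell type were the same in both groups, and the labels name no genotype, age, sex, leukemia model or sorting marker. They do not say that the 4 libraries of a group came from separate animals or cultures, and the p-values therefore reflect how far these libraries vary, which may be technical variation.

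TRIM proteins share an amino-terminal arrangement of a RING finger, B-box zinc fingers and a coiled coil, and most act as ubiquitin ligases: the RING binds a ubiquitin-carrying E2 enzyme, and the coiled coil pairs 2 chains. The carboxy-terminal domain, most often a SPRY domain, selects what is bound. In macrophages several members tune the sensing of foreign RNA and DNA, bind retroviral capsids or restrain NF-kB signalling, and some of their genes are known to respond to interferon, whereas others work in chromatin, on microtubules or in protein quality control.

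The Mac libraries held 11646025 to 15556935 counts each and the E-Mac libraries 13377046 to 15740846. Macrophage markers, 16 in number, summed to 18473 ± 623 CPM for Mac and 18716 ± 1946 for E-Mac (SD, n = 4 each), with overlapping groups. CPM are counts per 1000000 counts of the tested genes, scaled between libraries. Of the other cell types looked for, 16 granulocyte markers summed to 35442 ± 1602 CPM in Mac and 14111 ± 3292 in E-Mac, and 16 stromal markers to 6.72 ± 0.800 and 235 ± 206 CPM, each with groups that did not overlap and p = 0.0286 by an exact two-sided permutation test, the smallest p that 4 against 4 libraries allow (0.0327 after Benjamini-Hochberg adjustment over 8 marker lists). The stromal sum differed among the E-Mac libraries, at 68.8 CPM (library 1), 402 (2), 46.7 (3) and 424 (4). Gene by gene, 11 of the 16 macrophage markers were higher and 2 lower, with a median log2 fold change of 0.68, although their sums overlapped. Of the granulocyte markers 11 of 16 were lower and 2 higher, of the stromal markers 8 of the 10 tested were higher, and none of either list was at 0 in every library. Of all genes tested 29.5% were higher and 28.8% lower. Sums went from 188 CPM in Mac to 126 in E-Mac for dendritic, 20.5 to 29.5 for B cell, 11.69 to 3.02 for T and NK cell (Cd3e at 0), 84.6 to 39.5 for erythroid and 89.2 to 227 for endothelial markers. Each of these sums also did not overlap between the groups, with the same exact permutation p of 0.0286 (0.0327 adjusted), though the B cell sum did not pass under other scalings. In bulk libraries fewer cells of a type and less RNA per cell cannot be told apart, and the part of these sums in the TRIM results was not tested beyond the values given below.

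The TRIM genes differed between E-Mac and Mac in both directions. Of the 41, 15 were higher in E-Mac and 12 lower at an adjusted p under 0.05 (edgeR quasi-likelihood test, Benjamini-Hochberg over all genes tested), and 14 did not pass. By library size alone 10 were higher and 17 lower. With TMM scaling the 15 higher and 12 lower are 36.6% and 29.3% of the members, against 29.5% and 28.8% of all genes tested. For either direction it was 65.9% against 58.3%. At least 2-fold were 6 increases (14.6%, background 9.57%) and 2 decreases (4.88%, background 10.5%). The median log2 fold change was 0.15 over the members and -0.003 over all genes, and the median size of a change was 0.42 and 0.43. The members together thus moved about as often and as far as the genes tested as a whole, and the results lie in which members moved which way.

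**Figure D1:**
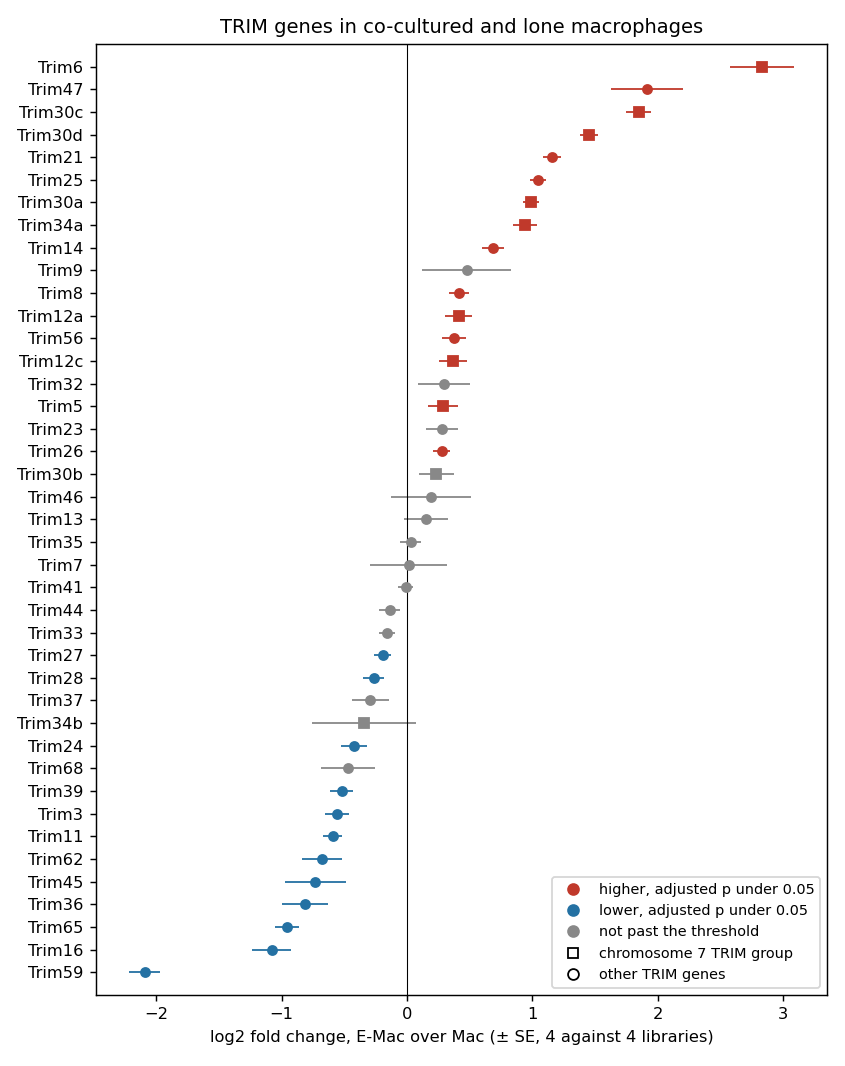
Log2 fold change of the 41 TRIM genes, E-Mac over Mac (x axis), with bars of 1 standard error, from 4 against 4 libraries. Trim6 (2.83) and Trim59 (-2.09) are at the ends; squares mark the 10 neighbours on chromosome 7, of which 8 passed the threshold, all higher; scaling by library size alone took Trim5, Trim12a, Trim12c, Trim26 and Trim56 below it.

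The abundant members set the total. TRIM transcripts summed to 2358 ± 51.6 CPM in Mac and 3276 ± 156 CPM in E-Mac (SD, n = 4 each), a ratio of 1.39. Trim30a alone made up 15.2 ± 0.274% of the sum in Mac and 21.8 ± 0.476% in E-Mac, and without it the sums were 1999 ± 42.2 and 2562 ± 133 CPM. Per kilobase of exon, Trim30a was the most abundant member in both groups, with 87.4 CPM per kb in Mac and 174 in E-Mac. In E-Mac it was followed by Trim25 (82.0 CPM per kb), Trim30d (81.7), Trim12c (40.7) and Trim8 (37.8), and in Mac by Trim25 (39.8), Trim28 (33.0), Trim12c (31.6) and Trim11 (30.3). Trim25 and Trim30d, both near 82 CPM per kb, were not separated in E-Mac. At the other end, Trim9 was at 0.0603 CPM per kb in Mac and 0.0843 in E-Mac.

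**Figure D2:**
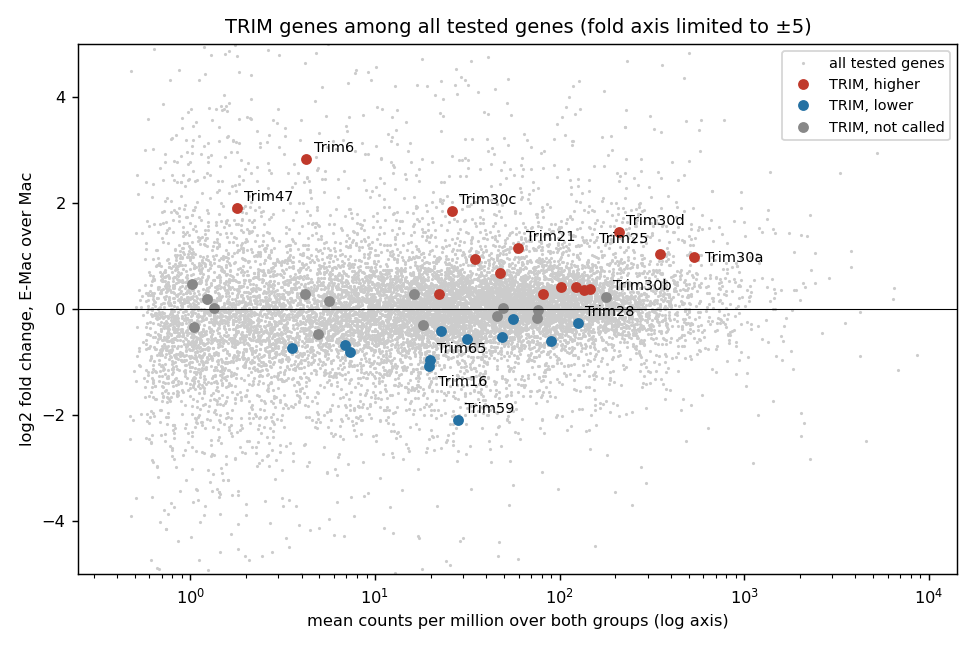
Log2 fold change (y axis) against mean CPM over both groups (x axis, log scale) for all 13412 tested genes in grey, of which 92 lie beyond the limits of 5, and for the 41 TRIM genes in color. Trim30a, Trim25 and Trim30d are both abundant and higher in E-Mac, whereas Trim6 and Trim47 were higher at low counts.

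Of the 15 increases 8 came from one place in the genome. On chromosome 7 (GRCm38, the build also called mm10, 104218793 to 104507849) 10 TRIM genes stand side by side over 289 kb with 0 other protein-coding genes between them in GENCODE M21: Trim6, Trim34a, Trim5, Trim12a, Trim34b, Trim12c, Trim30b, Trim30c, Trim30a and Trim30d. This is the mouse counterpart of the primate locus that holds TRIM5, whose product binds incoming retroviral capsids. In E-Mac 8 of the 10 were higher, 0 were lower and Trim34b and Trim30b did not pass, with a median log2 fold change of 0.68. Outside the group 7 of 31 were higher, 12 lower and 12 not called, with a median of -0.14. Over all genes tested 29.5% were higher and 28.8% lower. By library size alone 5 of the 10 passed, and with the stromal score as a covariate also 5, all higher. Stromal marker sums did not overlap between the groups, at 5.58 to 7.43 CPM in Mac and 46.7 to 424 in E-Mac. Fits with this covariate, here and below, therefore cannot cleanly part the score from the group.

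The promoters of this group are shown because 6 of its members hold the same short motif near their start. The motif searched was GAAA, any 2 bases and GAAA again, on either strand, the core of the interferon-stimulated response element, in RefSeq windows (GRCm38.p6) from 250 bases before to 50 after a start. Stretches of 80 bases just before the starts of 4 genes on the minus strand are given 5′ to 3′, with the match in capitals, which here reads as the reverse complement.
Trim5, chr7:104288107-104288186: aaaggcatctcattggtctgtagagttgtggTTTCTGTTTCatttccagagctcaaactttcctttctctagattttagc
Trim12c, chr7:104353350-104353429: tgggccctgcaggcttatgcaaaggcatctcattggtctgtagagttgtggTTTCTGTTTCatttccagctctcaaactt
Trim30a, chr7:104465194-104465273: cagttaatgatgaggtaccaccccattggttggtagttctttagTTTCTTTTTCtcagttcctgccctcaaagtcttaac
Trim30d, chr7:104507850-104507929: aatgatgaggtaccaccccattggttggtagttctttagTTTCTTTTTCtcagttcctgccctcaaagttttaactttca

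Windows were found for 32 of the 41 members, and not for Trim3, Trim8, Trim11, Trim14, Trim16, Trim33, Trim35, Trim36 and Trim65. The motif was present in 8 of the 32 (25%), against 3.99% of the 27025 genes with a window and 4.02% of those tested. The 8 were Trim5, Trim12a, Trim12c, Trim30a, Trim30d and Trim34a of the chromosome 7 group, and Trim21 and Trim26 elsewhere. All 8 were called higher in E-Mac, though Trim5, Trim12a, Trim12c and Trim26 not by library size alone: the motif was in 8 of 13 higher members with a window, 0 of 7 lower and 0 of 12 not called, whereas over all tested genes it was in 5.56% of those higher, 3.22% of those lower and 3.41% of those not called. The windows are not independent, since those of Trim5 and Trim12a share a run of 241 identical bases, those of Trim30a and Trim30d one of 118, and those of Trim5 and Trim12c one of 71. The windows of Trim6 and Trim30c, the members of the group with the greatest fold changes, held no match, and that of Trim30b starts 11238 bases inside the gene as GENCODE draws it. Outside the group the only windows of Trim28 (lower), Trim47 (higher) and Trim44 (not called) start 25038, 16975 and 6928 bases inside. A match at the GENCODE starts of these genes would have been missed. A second motif, TTCNNNGAA on either strand, the letters of the interferon-gamma activated site, was in 3 of the 32 (Trim30c, Trim45 and Trim46), against 9.55% of all genes with a window.

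Trim6, whose protein makes unanchored ubiquitin chains that activate the kinase IKK-epsilon, had the greatest fold change of all members. It stood at 0.808, 1.17, 1.60 and 0.616 CPM in Mac 1 to 4, from 10 to 26 counts a library, and at 6.86, 8.73, 7.34 and 6.90 CPM in E-Mac 1 to 4, from 88 to 127 counts. Every E-Mac library was above every Mac library. The log2 fold change was 2.83 ± 0.26 (SE; adjusted p = 7.23e-07, edgeR), 7.11-fold.

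The Trim30 genes, specific to rodents, include Trim30a, known to restrain Toll-like receptor signalling by removing the TAK1 adaptors TAB2 and TAB3. Trim30a stood at 374, 346, 360.1 and 356 CPM in Mac 1 to 4 and at 689, 751, 700.2 and 714 CPM in E-Mac 1 to 4. All 4 E-Mac libraries were thus far above the Mac range, and the log2 fold change was 0.99 ± 0.06 (adjusted p = 3.23e-08). Trim30d gave 120.2, 109.7, 111 and 108 CPM in Mac and 282, 335, 298 and 313 CPM in E-Mac, a log2 fold change of 1.45 ± 0.07 (adjusted p = 2.05e-09). Trim30c gave 11.2, 10.7, 10.7 and 12.8 CPM in Mac and 44.7, 41.8, 39.9 and 37.3 CPM in E-Mac, 1.85 ± 0.10 on the log2 scale (adjusted p = 4.83e-09). Neither gene's groups overlapped. Trim30b differed from these: its 192, 157, 167 and 139 CPM in Mac and 155, 209, 165 and 239 CPM in E-Mac overlapped, and its log2 fold change of 0.23 ± 0.14 did not pass (adjusted p = 0.174). Without E-Mac 1 the adjusted p of Trim30b was 0.0456 at a log2 fold change of 0.33, and without both E-Mac 2 and 4 it was 0.866 at -0.02.

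**Figure D3:**
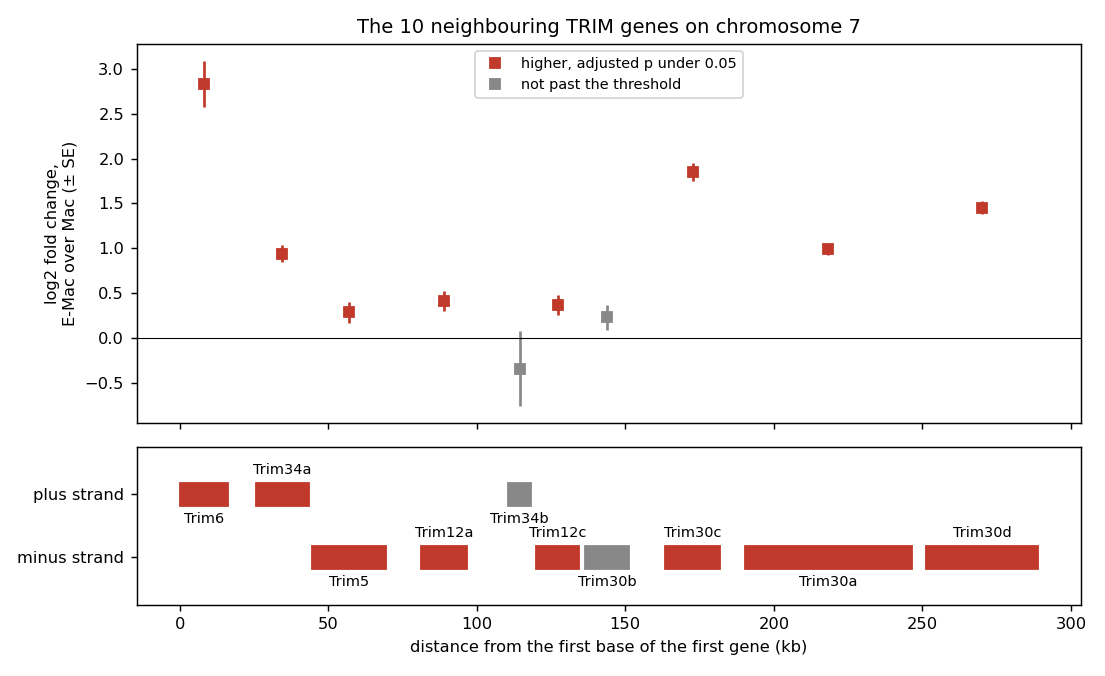
Upper panel: log2 fold change, E-Mac over Mac, with bars of 1 standard error (y axis), of the 10 TRIM genes at their place in the 289 kb group (x axis, kb from its first base). Lower panel: the genes by strand, in red where higher and in grey where not past the threshold; Trim6, Trim30c and Trim30d stand above 1 and Trim5, Trim12a, Trim12c and Trim30b between 0.23 and 0.41, and scaling by library size alone left Trim5, Trim12a and Trim12c below the threshold.

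Trim34a stood at 24.5, 24.4, 22.4 and 23.5 CPM in Mac 1 to 4 and at 40.8, 50.6, 40.7 and 49.96 CPM in E-Mac 1 to 4. It rose by 0.94 ± 0.10 on the log2 scale (adjusted p = 2.53e-06), with no overlap, and by 0.60 with the stromal score as a covariate. Its near copy Trim34b had 4 to 24 counts in a library, 1.18, 1.17, 1.11 and 1.23 CPM in Mac and 0.312, 0.756, 0.876 and 1.73 CPM in E-Mac, and its log2 fold change of -0.34 ± 0.41 did not pass (adjusted p = 0.503). The pair shares much sequence: 59.7% of the 50-base stretches of Trim34a's exons also occur in another gene, mostly Trim34b. The split between these genes is uncertain, since the handling of reads that match several places was not given in the sources used here. Of the exon bases of Trim34a 23.5% lie opposite a gene on the other strand, and use of the strand in counting was not given either. Shared stretches were looked for on both strands, so this share and the 59.7%, of which 39.8% was with Trim34b, may cover the same bases.

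Trim5, Trim12a and Trim12c, the mouse relatives of the capsid-binding TRIM5, rose least among the 8 called members of the group. Trim12a stood at 94.0, 83.8, 92.2 and 79.1 CPM in Mac 1 to 4 and at 96.2, 132, 103 and 134 CPM in E-Mac 1 to 4, a log2 fold change of 0.41 ± 0.11 (adjusted p = 0.00531). Trim12c stood at 125, 115, 117 and 116 CPM in Mac and at 123, 170.1, 132 and 184 CPM in E-Mac, 0.37 ± 0.11 (adjusted p = 0.0152). Trim5 stood at 21.4, 18.5, 21.01 and 19.0 CPM in Mac and at 22.4, 27.5, 20.3 and 27.4 CPM in E-Mac, 0.29 ± 0.12 (adjusted p = 0.0486). In each of these E-Mac 2 and 4 were the high libraries, and the groups of Trim12c and Trim5 overlapped. By library size alone none of the 3 passed. With the stromal score as a covariate all 3 were below 0 and none passed (Trim12a -0.053, adjusted p = 0.737; Trim12c -0.17, adjusted p = 0.191; Trim5 -0.15, adjusted p = 0.504). Trim5 lost its call without any 1 of Mac 1, 2, 3 or 4 or E-Mac 2 or 4 (adjusted p of 0.0577, 0.106, 0.0681, 0.112, 0.112 and 0.111). Trim5 and Trim12c share 36.6% and 33.7% of their 50-base exon stretches with other genes, mostly with each other.

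Members of the group changed by unequal amounts also within single libraries. The log2 ratio of each gene to its neighbour was taken in every library for the 9 neighbouring pairs and compared between the groups by an exact permutation test (two-sided, smallest possible p 0.0286). In 6 pairs the ratios of the 4 Mac and 4 E-Mac libraries did not overlap (exact permutation p = 0.0286, 0.0429 after Benjamini-Hochberg adjustment over the 9). As single genes, 53.9% of all genes tested did not overlap, and no share was taken over other gene pairs. Trim34b to Trim12c was barely apart, at -6.740 in E-Mac 4 and -6.725 in Mac 1, and rests on 4 to 24 Trim34b counts a library. The ratio of Trim6 to Trim34a rose by 1.99, of Trim34a to Trim5 by 0.65 and of Trim30c to Trim30a by 0.86, while that of Trim30b to Trim30c fell by 1.63, that of Trim30a to Trim30d by 0.46 and that of Trim34b to Trim12c by 0.95. For Trim5 to Trim12a (change -0.12, exact p = 0.114) and Trim12c to Trim30b (change 0.13, exact p = 0.171) no difference was detectable. The last pair, Trim12a to Trim34b, changed by 0.9998 (exact p = 0.0857).

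Outside chromosome 7's group, members that act on the sensing of foreign RNA and DNA moved in both directions. Trim25 attaches ubiquitin chains to the RNA sensor RIG-I. It stood at 228, 235, 229 and 223 CPM in Mac 1 to 4 and at 471, 495, 458 and 464 CPM in E-Mac 1 to 4, with all E-Mac libraries above all Mac libraries, a log2 fold change of 1.04 ± 0.06 (adjusted p = 1.24e-08, edgeR). Trim21, the cytosolic receptor for antibody-coated particles, lies on chromosome 7 (102557921 to 102565486), apart from the group. It stood at 35.97, 37.3, 36.7 and 38.2 CPM in Mac and at 77.4, 81.8, 81.3 and 89.3 CPM in E-Mac, 1.15 ± 0.07 (adjusted p = 1.42e-08), again with no overlap.

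Trim14, which has no RING and acts as an adaptor of the mitochondrial antiviral protein MAVS, rose from 36.4 ± 3.61 to 58.4 ± 4.02 CPM (log2 fold change 0.68 ± 0.09, adjusted p = 1.96e-05). Of its exon bases 38.0% lie opposite genes on the other strand, Nans among them, which rose by 0.28 ± 0.11 (adjusted p = 0.0418), so reads of the overlap cannot be told apart without strand. Trim26, known to act on IRF3, rose from 73.5 ± 1.98 to 89.0 ± 5.96 CPM (0.28 ± 0.07, adjusted p = 0.00314). Trim56, a ligase of the DNA-sensing pathway, stood at 136, 128, 126 and 119.8 CPM in Mac and at 151, 180.2, 139 and 190.5 CPM in E-Mac. Its groups did not overlap, with E-Mac 2 and 4 highest, and the log2 fold change was 0.37 ± 0.10 (adjusted p = 0.0043). With library size alone as the scale neither Trim26 nor Trim56 passed (adjusted p of 0.0903 and 0.0565), nor did they with the stromal score as a covariate (0.22, adjusted p = 0.103, and -0.046, adjusted p = 0.735). Trim65, known to attach ubiquitin to the RNA sensor MDA5, went the other way: it stood at 26.2, 25.1, 27.8 and 25.3 CPM in Mac and at 13.9, 14.6, 12.4 and 13.0 CPM in E-Mac, -0.96 ± 0.10 (adjusted p = 1.98e-06). Its groups lay far apart, with no E-Mac library above 14.6 CPM.

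**Figure D4:**
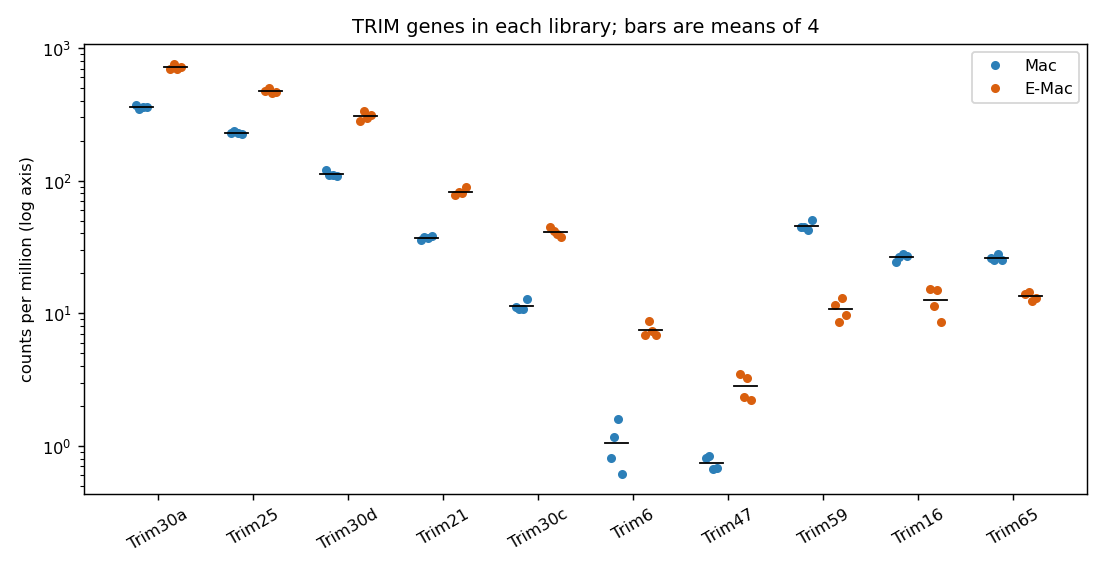
CPM (y axis, log scale) of 10 TRIM genes in each of the 4 Mac and 4 E-Mac libraries, 1 point a library, with bars at the means of 4. In none of the 10 do the groups overlap; the 7 on the left are higher in E-Mac and Trim59, Trim16 and Trim65 lower.

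The partners of these ligases were taken from lists drawn up by pathway, some of which share genes such as Usp18 and Irf7. Of 16 genes of RNA and DNA sensing 12 were higher (75%) and 2 lower (12.5%), beside 29.5% and 28.8% of all genes tested. Among the higher were Irf7 (log2 fold change 2.59 ± 0.08), Zbp1 (2.03 ± 0.06) and Ifih1, which encodes MDA5 (1.64 ± 0.07, adjusted p = 3e-10, edgeR). Ddx58, which encodes RIG-I and was picked after its value was seen, rose by 1.62 ± 0.07. The 2 lower were Tmem173, which encodes STING (-0.66 ± 0.09), and Irf3 (-0.40 ± 0.09), and Mavs (-0.26 ± 0.13) did not pass. Of 16 genes of interferon receptors and their signalling 11 were higher, Usp18, Socs1 and Stat2 with the smallest p, and Ifngr1 (-0.60 ± 0.06) and Tyk2 (-0.58 ± 0.07) were lower. All 5 tested genes of the ISG15 system, a ubiquitin-like tag, were higher, with Isg15 at 3.63 ± 0.10, as were 20 of 20 known interferon targets, whose median of 2.01 stands beside the 0.15 of the TRIM members.

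Of the ubiquitin machinery that TRIM proteins depend on, 9 of 16 activating and conjugating enzymes were higher (56.25%) and 0 lower. Their median log2 fold change was 0.19, and over all genes tested 29.5% were higher and 28.8% lower. Ube2n, which builds K63-linked chains, rose by 0.56 ± 0.09, Uba1 by 0.42 ± 0.07 and Ube2d3 by 0.39 ± 0.07. With library size as the scale 6 of the 16 were higher and 1 lower. Among 61 RNF genes, ring finger genes taken by name and the same count minimum, 26 were higher (42.6%) and 14 lower (23.0%). Their median was 0.14, beside the 0.15 of the TRIM genes. The RNF list was not screened for TRIM relatives with such names, of which Rnf135 is 1. By library size 19 RNF genes were higher and 19 lower.

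Of 4 further members tied to NF-kB and Toll-like receptor signalling 1 rose, 2 fell and 1 did not pass. Trim8, a positive regulator of TAK1, rose from 105 ± 7.74 to 140.0 ± 11.1 CPM (0.41 ± 0.08, adjusted p = 0.000479; 0.27 by library size). Trim27 fell from 59.5 ± 2.47 to 51.9 ± 2.45 CPM (-0.20 ± 0.07, adjusted p = 0.0258), a call lost without Mac 2, Mac 4 or E-Mac 2 (adjusted p of 0.067, 0.087 and 0.108) and with the stromal score as a covariate (0.46), while by library size the change was -0.34. Trim62, which attaches ubiquitin to the fungal signalling adaptor CARD9, fell from 8.42 ± 1.46 to 5.26 ± 0.586 CPM (-0.68 ± 0.16, adjusted p = 0.00282). Trim13, anchored in the endoplasmic reticulum, had a log2 fold change of 0.15 ± 0.18 and did not pass. Of 16 genes of the pathway 7 were higher (43.75%) and 4 lower (25%), beside 29.5% and 28.8% of all genes tested. Among them were Ikbkb (-0.84 ± 0.07), Ikbkg (0.60 ± 0.09) and Irak4 (-0.48 ± 0.08). Tab2 and Tab3, the targets of Trim30a, were picked after their values were seen, at -0.05 ± 0.07 and 0.29 ± 0.12. By library size 2 genes of the list were higher and 5 lower.

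The 3 members that carry a PHD finger and a bromodomain and work as transcriptional corepressors had negative fold changes, Trim28 not in every setting. Trim28, the KAP1 corepressor that silences retroelements through zinc finger proteins, stood at 129, 143, 137 and 141 CPM in Mac and at 124, 98.2, 126 and 109 CPM in E-Mac, where libraries 2 and 4 were lowest. Its log2 fold change was -0.27 ± 0.08 (adjusted p = 0.0144), without E-Mac 2 it was -0.18 (adjusted p = 0.0529), and with the stromal score as a covariate it was 0.034 (adjusted p = 0.816), while by library size it was -0.41. Trim24 fell from 26.0 ± 2.61 to 19.4 ± 1.60 CPM (-0.42 ± 0.10, adjusted p = 0.00353). Trim33 did not overlap between groups, at 79.4 ± 2.74 and 71.0 ± 3.85 CPM, but did not pass (-0.16 ± 0.07, adjusted p = 0.0513), and passed without E-Mac 4 (-0.18, adjusted p = 0.0302) and by library size (-0.30). Of 15 tested partners of KAP1 3 were higher (20%) and 4 lower (26.7%), no more often than all genes tested (29.5% and 28.8%). Morc3 rose by 0.68 ± 0.06, while the heterochromatin proteins Cbx5 (-0.86 ± 0.12) and Cbx3 (-0.56 ± 0.09), the histone methyltransferase Setdb1 (-0.39 ± 0.08) and the zinc finger protein Zfp809 (-0.62 ± 0.15) fell. By library size 1 partner was higher and 6 lower.

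Trim59 fell most. Its protein is held in membranes by a carboxy-terminal transmembrane segment and the gene lies on chromosome 3 (69035288 to 69044755). It stood at 45.1, 44.9, 42.7 and 50.2 CPM in Mac 1 to 4 and at 11.5, 8.67, 13.0 and 9.70 CPM in E-Mac 1 to 4. The lowest Mac library was thus more than 3-fold above the highest E-Mac library, and the log2 fold change was -2.09 ± 0.12 (adjusted p = 1.08e-08, edgeR), 4.27-fold lower. The granulocyte marker sum also fell between the groups, from 35442 to 14111 CPM, and its part in this fall was not tested. Trim16, which has no RING and takes part in the removal of damaged lysosomes, stood at 24.5, 26.6, 27.95 and 26.9 CPM in Mac and at 15.4, 11.3, 14.9 and 8.63 CPM in E-Mac, with no overlap and E-Mac 2 and 4 lowest. Its log2 fold change was -1.08 ± 0.15 (adjusted p = 4.93e-05), and with the stromal score as a covariate -0.45 (adjusted p = 0.0634).

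The other members that fell have varied roles. Trim11, a ligase linked to the clearance of misfolded proteins, fell from 108 ± 4.14 to 71.8 ± 7.26 CPM (-0.59 ± 0.08, adjusted p = 2.16e-05). Trim39, which acts on cell cycle and apoptosis regulators, fell from 57.3 ± 5.95 to 39.9 ± 3.67 CPM (-0.52 ± 0.09), and Trim3, which carries NHL repeats, from 37.5 ± 3.23 to 25.5 ± 2.29 CPM (-0.56 ± 0.10). Of low level were Trim36, a microtubule-binding member (9.29 ± 1.47 and 5.27 ± 1.16 CPM, -0.82 ± 0.18), and Trim45, with a filamin domain (4.46 ± 0.610 and 2.68 ± 0.873 CPM, -0.73 ± 0.24, adjusted p = 0.0194). Trim45 lost its call without Mac 2, Mac 3, E-Mac 2 or E-Mac 4 (adjusted p of 0.0512, 0.0532, 0.0575 and 0.0501). With the stromal score as a covariate Trim45 was at 0.13 (adjusted p = 0.811) and Trim36 at -0.23 (adjusted p = 0.549).

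Trim47 rose, and its neighbour Trim65 fell. The genes overlap on the minus strand of chromosome 11 (116105752 to 116127210 and 116121846 to 116131128), where 8.23% of Trim47's exon bases are also exon of Trim65. Trim47 stood at 0.808, 0.833, 0.676 and 0.678 CPM in Mac, from 10 to 13 counts, and at 3.51, 2.34, 3.23 and 2.23 CPM in E-Mac, from 31 to 48 counts. The groups did not overlap, and the log2 fold change was 1.91 ± 0.29 (adjusted p = 7.62e-05). Reads in the shared exon bases cannot be assigned to 1 of the genes, although the values moved in opposite directions.

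By domain, 13 of the 28 members with a SPRY domain were higher and 7 lower, against 2 and 5 of the 13 others. Over all genes tested 29.5% were higher and 28.8% lower. Of the 13 higher, 8 belong to the chromosome 7 group: the 18 SPRY members outside it were 5 higher, 7 lower and 6 not called, with a median log2 fold change of 0.00048. Among members that did not pass, Trim41 (76.5 ± 2.22 and 75.9 ± 2.32 CPM) and Trim35 (49.1 ± 1.62 and 50.1 ± 5.25 CPM) had the best-covered values near no change, with log2 fold changes of -0.01 ± 0.06 and 0.03 ± 0.08, although by library size alone Trim41 was called lower (-0.16, adjusted p = 0.0384). Trim44 (-0.14 ± 0.09), which lacks a RING, Trim37 (-0.29 ± 0.15), with a MATH domain, and Trim23 (0.28 ± 0.13), with an ARF-like GTPase domain, were between 14 and 48 CPM and did not pass. Trim44 (-0.28) and Trim37 (-0.44) were called lower by library size, as by upper-quartile factors, and Trim23 was called higher without E-Mac 2 (0.35, adjusted p = 0.0394). Trim68 (-0.47 ± 0.22, called lower in 6 of 18 other settings) and Trim32 (0.29 ± 0.21) were near 4 to 6 CPM, and Trim7, Trim46 and Trim9, known from muscle or nerve cells, were at 0.857 to 1.35 CPM in either group, where standard errors of 0.31 to 0.35 mean that a 1.5-fold change was not detectable at this depth.

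The 27 symbols below the minimum were not tested. Among them 13 had between 1 and 79 counts, and 14 had 0 counts in all 8 libraries, which allows up to 3 counts in 116827430, or 0.0257 per 1000000 counts, over all libraries. The 14 include Trim54, Trim55 and Trim63, the muscle members, and Trim71 of early embryos. Trim38, an interferon-related ligase of Toll-like receptor signalling, had 4 counts, all in Mac 1. Of the 13 family genes with other names 6 were tested, and all 6 passed, beside 58.3% of all genes tested. Higher were Pml, the scaffold of nuclear bodies (0.91 ± 0.10), Mefv, which encodes pyrin (0.61 ± 0.06), Mid1 (2.81 ± 0.45) and Rnf135 (0.55 ± 0.13), which encodes Riplet, a second RIG-I ligase. Fsd1l (-0.998 ± 0.29) and Fsd2 (-1.07 ± 0.39) were lower. Mid1 had only 4 to 10 counts in a Mac library, and 81 in E-Mac 1 against 25 to 43 in the other E-Mac libraries. Fsd2 had 98 counts in all, and its groups overlapped.

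The E-Mac libraries did not move alike. In 26 members the groups did not overlap, 13 with all E-Mac libraries above all Mac libraries (31.7%, background 26.7%) and 13 with all below (31.7%, background 27.2%). In 13 members both E-Mac 2 and 4 were above both E-Mac 1 and 3 (31.7%, background 25.8%), and in 10 both were below (24.4%, background 33.0%). Of the 10 neighbours on chromosome 7, 7 had E-Mac 2 and 4 above. Stromal marker sums were 402 and 424 CPM in these libraries against 68.8 and 46.7 CPM in the other two, and the part of stromal RNA in this split was not tested. Without E-Mac 2 and 4, 22 of the 27 called members kept their call. The changes of Trim6 (2.77), Trim30c (1.90), Trim30d (1.38), Trim21 (1.11), Trim25 (1.03), Trim30a (0.96) and Trim59 (-1.89) were then close to those with all libraries. Those of Trim12a (0.20, adjusted p = 0.0189) and Trim56 (0.19, adjusted p = 0.0113) were smaller but still passed. Trim12c (0.11, adjusted p = 0.118), Trim5 (0.10, adjusted p = 0.473), Trim28 (-0.13, adjusted p = 0.0801), Trim27 (-0.15, adjusted p = 0.0789) and Trim45 (-0.36, adjusted p = 0.211) no longer passed.

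**Figure D5:**
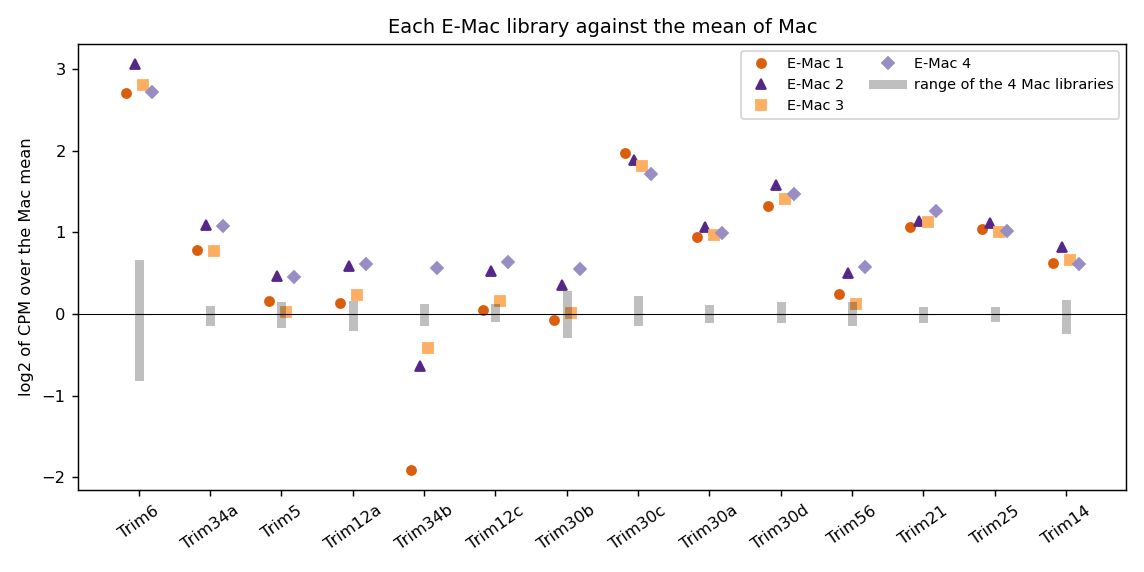
Log2 of CPM in each E-Mac library over the Mac mean (y axis) for the 10 neighbours on chromosome 7 and Trim56, Trim21, Trim25 and Trim14, with the range of the 4 Mac libraries as grey bars. For Trim5, Trim12a, Trim12c, Trim30b and Trim56, E-Mac 1 and 3 lie at or near the Mac range and E-Mac 2 and 4 above it, while all 4 E-Mac libraries stand clear of it for Trim6, Trim30c, Trim30a, Trim30d, Trim21 and Trim25.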

How the data were processed

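PolyA RNA of 8 libraries was counted per gene symbol by the authors, who deposited raw counts. Per the submitters' processing notes, bcl2fastq, HISAT2, featureCounts, Subread and DESeq2 were named, without versions, with genome build mm10. Strand setting, multi-mapping setting and annotation were not given in the sources used here. Of 53673 names, 26 that looked like dates were dropped, and all 37 mitochondrial genes stood at 0 counts.

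On the deposited counts, edgeR 4.0.16 was run in R 4.3.3 with filterByExpr (lowest count 10, total 15), TMM factors, a robust quasi-likelihood fit and Benjamini-Hochberg adjustment over 13412 genes, with calls at an adjusted p under 0.05. CPM are counts per 1000000 of the tested genes' total times its TMM factor, and a standard error is the log2 fold change divided by the square root of F. Alternatives used DESeq2 1.42.0, limma 3.58.1, other scalings and filters, a stromal score as covariate and libraries left out. The stromal score is the mean over the 16 stromal markers of log2 of CPM plus 1. Exon lengths, overlaps and shared 50-base stretches came from GENCODE M21, and promoter windows from RefSeq (GRCm38.p6).

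Replicate libraries differed by more than sampling noise in every pair (lowest chi-square over its degrees of freedom 4.85). Equal replicate numbers showed no sign of pairing Mac with E-Mac libraries, although 4 libraries a group cannot exclude it. Tested on simulated data of 4 against 4 libraries with 13207 genes, edgeR recovered 64.2% of 1.5-fold, 87.9% of 2-fold and 98.5% of 4-fold changes and called 14 unchanged genes. The simulation changed only 67, 66 and 65 of the tested genes by these folds, whereas 58.3% of the genes tested were called in the data. It also drew each library independently, without the split among the E-Mac libraries. These rates therefore may not hold for the data. Values per library are given for members changed at least 2-fold, the chromosome 7 group and the 6 members of highest mean CPM, and Trim28 and Trim65 were added after their values were seen; of each list the 3 genes with the smallest adjusted p may be named, and those that moved against the rest. The members and lists were chosen with earlier results of these data known.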

Additional observations from a re-analysis of the deposited data

Results flagged for a closer look

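In 3 of the 82 groups of 4 libraries (41 members in 2 groups) 1 library stood far from the other 3; chance marks about 1 in 20 such groups. In E-Mac, Trim8 was at 123 CPM in library 4 and at 145 to 147 CPM in the others, a gap of 0.904 of the group's range. In Mac, Trim37 was at 26.0 CPM in library 1 and at 17.6 to 18.1 CPM in the others, a gap of 0.934 of the range. Also in Mac, Trim7 was at 1.60 CPM in library 3 and at 1.23 to 1.25 CPM in the others, a gap of 0.956 of the range. Trim8 passed the threshold with each library left out in turn, and Trim37 and Trim7 did not pass in any such fit.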

How the results depend on the processing

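Over 19 other settings, 17 of the 27 called members kept call and direction wherever they were tested (10 higher, 7 lower), and 508 results of called members held 41 lost calls, 6 of them with a turned direction. Higher members numbered 10 to 16 and lower members 8 to 17. The causes of the following changes were not tested. Scaling by library size alone gave 10 higher and 17 lower members, moved the median of all genes by -0.14, gave 2996 higher and 5018 lower genes in all, left 5 of the chromosome 7 group higher and put the median member at 0.0032, with Trim35 at -0.12, Trim7 at -0.13, the macrophage marker sum at a log2 ratio of -0.13 and the B cell sum at 0.38. Upper-quartile factors gave -0.070 for Trim35, -0.085 for Trim7, -0.0798 for the macrophage sum and 0.43 for the B cell sum, which under RLE factors was 0.53 and in none of these 3 scalings passed. With the stromal score as a covariate 5 of the chromosome 7 group were higher and the median member was at -0.053, with turned directions for Trim13 (-0.19), Trim5 (-0.15), Trim12a (-0.053), Trim12c (-0.17), Trim30b (-0.32), Trim9 (-0.39), Trim28 (0.034), Trim45 (0.13), Trim56 (-0.046) and Trim41 (0.066). Without E-Mac 2 and 4 the stromal sum was at 3.11, Trim30b at -0.024 and Trim41 at 0.028. Trim35 was at -0.0096 with at least 10 CPM asked for, which left 12 members untested, Trim41 at 0.018 with no filter and Trim7 at -0.035 under limma-voom. Leaving out 1 library at a time gave -0.00044 to 0.11 for Trim35, -0.026 to 0.022 for Trim41, -0.17 to 0.16 for Trim7 and -0.021 to 0.093 for the macrophage sum.

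The replicate number as a block gave 26 called members, 25 of the 27 among them (Trim5 and Trim27 lost, Trim68 gained), and -0.011 for Trim7. Same-numbered Mac and E-Mac libraries deviated together with correlations of -0.04, 0.03, 0.01 and -0.11, and 1 of 4 Mac libraries correlated best with its own number. These values show no sign of pairing by number, but with 4 libraries a group they cannot exclude it.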
